A study of Mus musculus with 18 samples.

Results

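The protein tyrosine phosphatase genes are the Ptpn genes, which encode phosphatases inside the cell, and the Ptpr genes, which encode phosphatases that span the membrane. Their accessible regions were taken as all regions of the deposited ATAC-seq table whose nearest protein-coding gene within 50 kb carried such a symbol. This gave 216 of 53796 regions at 31 of the 37 family genes in the reference annotation. Ptpn20, Ptprd, Ptprh, Ptprq, Ptprt and Ptprz1 had no region. Nearness does not show which gene a region acts on.

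The cells were bone marrow-derived macrophages, grown with M-CSF from the marrow of wild-type C57BL/6 mice aged 6-12 weeks. Each group had 2 libraries and 2 treatments of 4 h in sequence, named by 1 letter each. Groups CL and CT received CpG first and then LPS (CL) or TNF (CT). Groups PL and PT received polyI:C first and then LPS (PL) or TNF (PT). Groups MC, ML, MP and MT received medium first and then CpG, LPS, polyI:C or TNF, and MM received medium in both steps. Doses were 100 nM CpG, 1 ng/mL LPS, 1 µg/mL polyI:C and 10 ng/mL TNF. CpG, LPS and polyI:C imitate microbial DNA, bacterial cell wall and double-stranded RNA, and TNF is a cytokine. The labels name no separate mice or cultures for the 2 libraries of a group, and a p-value here therefore reflects no more than how far those libraries scatter, which may be technical.

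Protein tyrosine phosphatases remove phosphate from tyrosines and so reset the signals that tyrosine kinases start. In macrophages, CD45 (Ptprc) and CD148 (Ptprj) act on SRC family kinases, SHP-1 (Ptpn6) is drawn to inhibitory receptors by its SH2 domains, and PTP1B (Ptpn1) and TC-PTP (Ptpn2) act on JAK kinases and STAT proteins. A peak in ATAC-seq marks DNA that a transposase can reach, which is not the same as transcription of the gene. In these bulk libraries, a region open in more cells and a region opened further in each cell cannot be told apart.

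Ptpre and Ptpn22 had start regions whose accessibility differed between groups, so their promoter sequences are shown here. The windows are RefSeq sequences of build GRCm38.p6 on the sense strand, from 250 bases before an annotated start. Capitals mark an AP-1 motif, TGANTCA; the other letters matched none of the motifs searched. The first Ptpre window lies at chr7:135537574-135537873, the internal Ptpre window shown at chr7:135605578-135605877 and the Ptpn22 window shown at chr3:103859545-103859844, all on the plus strand. Ptpre had another internal window, at chr7:135593231-135593530, and Ptpn22 another window, at chr3:103860027-103860326, which are not shown.
Ptpre first start: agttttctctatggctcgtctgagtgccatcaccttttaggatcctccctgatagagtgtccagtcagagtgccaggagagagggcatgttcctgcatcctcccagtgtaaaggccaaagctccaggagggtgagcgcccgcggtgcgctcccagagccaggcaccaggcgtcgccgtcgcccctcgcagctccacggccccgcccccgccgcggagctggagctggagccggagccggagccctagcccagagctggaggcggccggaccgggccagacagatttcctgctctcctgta
Ptpre internal start: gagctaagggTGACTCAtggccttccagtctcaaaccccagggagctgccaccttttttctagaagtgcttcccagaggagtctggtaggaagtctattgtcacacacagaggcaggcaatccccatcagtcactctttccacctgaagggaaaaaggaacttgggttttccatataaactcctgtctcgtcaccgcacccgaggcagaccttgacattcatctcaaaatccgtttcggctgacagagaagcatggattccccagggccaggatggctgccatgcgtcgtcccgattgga
Ptpn22 start: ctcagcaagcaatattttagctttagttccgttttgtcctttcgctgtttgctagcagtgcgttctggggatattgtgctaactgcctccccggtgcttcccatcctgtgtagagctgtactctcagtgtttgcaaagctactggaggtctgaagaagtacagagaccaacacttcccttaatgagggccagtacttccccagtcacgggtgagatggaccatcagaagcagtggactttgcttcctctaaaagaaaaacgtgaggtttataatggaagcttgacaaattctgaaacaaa

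The AP-1 match began 240 bases before the internal Ptpre start. AP-1 motifs stood in 2 of the 46 windows of family genes, in Ptpre and Ptprh, against 7.81% of all 32851 windows, so the match at Ptpre is a description and nothing particular to the family. The NF-kB motif stood in 1 family window, at Ptpn7, against 1.63% of all windows. The interferon response motif (3.44% of all windows) and the PU.1 motif GAGGAAGT (3.2%) stood in none of the 46. Both strands were searched, and no letters of one motif overlapped another in a family window. Promoter windows were on hand for 28 of the 31 genes with a region.

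Of the 216 regions, 155 lay inside a gene, 34 lay between genes, and 27 lay within 1 kb of a gene end. Ptpre held 30 regions, Ptprj 21, Ptpn1 16 and Ptpro and Ptprc 13 each, so these genes weigh most in every count. Reads in regions ranged from 3141641 (MM replicate 2) to 5986835 (MT replicate 1) per library, and all values are log2 CPM, the read count scaled to library size. The 2 libraries of a group correlated at 0.958 to 0.973, and at 0.919 in PT. The difference between the MP replicates stayed within read counting noise (chi-square of 1.003 per region, p = 0.291). They may be 1 sample, so their values carry no SD. The chi-square per region was also little above counting noise in ML (1.069) and in MM (1.077), the reference of the single stimuli. In PT it was 2.712. With MP counted as 1 sample, the regions called between MP and MM went down to 47, against 70 with both libraries. Among the polyI:C calls given below, those of the Ptpn18, Ptprk and Ptprn2 regions that polyI:C lowered were lost in this way (log2 differences -0.54, -0.72 and -1.12, adjusted p = 0.0639, 0.13 and 0.0597). Of the macrophage marker genes, all 7 had regions, 53 in total. All 3 fibroblast genes, the T and NK cell genes Cd3e, Cd3g and Cd8a, and the B cell genes Cd79a and Pax5 had none. All 4 neutrophil genes had regions (4 in total), as did all 3 dendritic cell genes (13) and 2 of 5 T and NK cell genes (5). Their mean level per library was 2.69 to 3.47 log2 CPM for neutrophil, 3.50 to 4.02 for dendritic cell and 3.36 to 3.68 for T and NK cell genes, against 3.30 to 4.01 for macrophage genes. The B cell gene Ms4a1 had 3 regions, at a mean level of 4.37 and 4.43 in MP, against 2.97 and 3.25 in MM. The part of these marker regions in the phosphatase results was not tested.

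Across the 9 groups, 162 of the 216 regions (75%) differed by limma's F test at an adjusted p under 0.05, against 69.7% of all regions. The spread between the highest and lowest group mean had a median of 0.891 log2 units in the family and 0.833 in all regions. The family's share and spread were near those of the whole table.

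Each single stimulus was compared with medium first. CpG raised 50 regions and lowered 15 (30.1% of the family, against 26.9% of all regions, or 17.7% higher and 9.23% lower). LPS raised 41 and lowered 16 (26.4%, against 25.8% of all regions, or 15.5% higher and 10.3% lower). PolyI:C raised 42 and lowered 28 (32.4%, against 33.2% of all regions, or 19% higher and 14.2% lower). With MP counted as 1 sample it raised 34 and lowered 13, and with any 1 MP or MM library left out it lowered 17 or 18. TNF raised 16 and lowered 1 (7.87%, against 6.84% of all regions, or 6.15% higher and 0.686% lower). The share called in the family was near that of all regions with every stimulus. The median log2 difference of the family lay between -0.00 and 0.02 in the 4 comparisons, and that of all regions between -0.01 and 0.01. The all-region shares given here also stand beside the single-stimulus counts of each gene group below. With MP as 1 sample (for MP against MM) or with 1 library left out, the count of all regions called fell as well. Without MC replicate 1 the 65 calls for CpG became 43, and without MM replicate 2 or MT replicate 1 the 17 calls for TNF became 11.

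**Figure D1:**
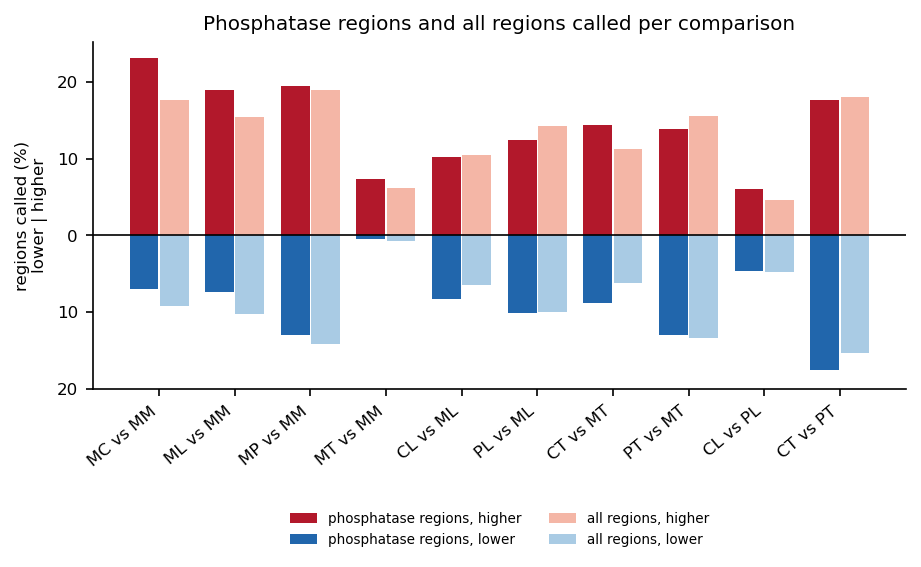
Share of phosphatase regions (dark bars) and of all 53796 regions (pale bars) called higher (upward, red) or lower (downward, blue) in each of 10 comparisons, by limma at an adjusted p under 0.05. The dark and pale bars are of similar height in most comparisons, for example 30.1% and 26.9% for MC against MM in both directions together.

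Start regions and other regions were counted apart. Of the 24 family regions on a promoter window, CpG called 0, LPS raised 1 and lowered 2, polyI:C raised 1 and TNF raised 1. Of all 8044 promoter regions, these stimuli called 9.49%, 17.6%, 14.1% and 1.23%. Of the 192 other family regions, CpG raised 50 and lowered 15, and polyI:C raised 41 and lowered 28. The F test called 58.3% of family promoter regions and 77.1% of the others, against 53.6% of all promoter regions in the table. The difference in share between promoters and other regions was not itself tested. The start regions of Ptpn1, Ptpn18, Ptpn21, Ptpra, Ptprc, Ptprj, Ptprm and Ptpru and both start regions of Ptprs did not pass the F test.

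Among JAK and STAT regulators and SH2 phosphatases (Ptpn1, Ptpn2, Ptpn6 and Ptpn11), 11 of 30 regions rose and 1 fell with CpG, and 9 rose and 0 fell with LPS. Their median log2 differences were 0.09 with CpG and 0.22 with LPS. PolyI:C raised 9 and lowered 3, and TNF raised 2 and lowered 0. Their response to polyI:C given before TNF ran the other way. In PT against MT, 1 region rose and 9 fell, against 15.6% and 13.4% of all regions. The median was -0.29, against 0.00 in all regions. The mean level of the group was 3.55 in PT replicate 1 and 3.23 in PT replicate 2, against 3.71 and 3.57 in MT, and that of the macrophage markers was 3.71 and 3.30 in PT, against 3.75 and 3.7 in MT. PT replicate 2 thus had the lowest mean of both lists. Without it, 2 regions rose and 6 fell, with a median of -0.12.

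Ptpn11 encodes SHP-2, which relays growth factor signals to RAS. A region 5.4 kb from the gene, at chr5:121196748-121197249, was at 4.20 and 4.47 log2 CPM in MC, 4.02 and 4.03 in ML, 3.25 and 3.43 in MP, 3.11 and 3.30 in MT, against 2.51 and 1.64 in MM. Both MM libraries lay below all 8 stimulated libraries. The log2 difference from MM was 2.26 in MC, 1.95 in ML, 1.26 in MP and 1.13 in MT, each with an SE of 0.22, and adjusted p was at most 0.000364. Without MM replicate 2 the MT difference was 0.70 with adjusted p of 0.0949. The region was also higher in CT than in PT, at 4.22 and 4.23 in CT and 3.07 and 2.73 in PT (log2 difference 1.32, SE 0.22, adjusted p = 1.87e-05).

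Ptpn1 encodes PTP1B, a phosphatase of insulin receptor and JAK kinases on the endoplasmic reticulum. A region 7.5 kb inside the gene (chr2:167939571-167940072) was at 2.72 and 3.14 log2 CPM in MC, 2.97 and 2.92 in ML, 2.02 and 1.77 in MP, 1.86 and 1.64 in MT, against 1.01 and 0.90 in MM. It rose with CpG and LPS by 1.97 and 1.99 log2 units (SE 0.27). The rise with polyI:C was 0.94, and it lost its call without MP replicate 1 (0.82, adjusted p = 0.0688) and after quantile normalization (0.22, adjusted p = 0.592). Another region at 17.1 kb in Ptpn1 (chr2:167949144-167949645) fell where polyI:C came first. It was at 5.19 and 5.15 in PL, 5.34 and 4.82 in PT, against 6.06 and 6.21 in ML and 6.06 and 5.89 in MT. It differed by -0.97 log2 units in PL against ML and -0.89 in PT against MT (SE 0.14 each), with no overlap between the groups compared. Of 16 Ptpn1 regions, 5 fell and 1 rose in each of these comparisons. Of all regions, 9.98% fell and 14.3% rose in PL against ML, and 13.4% fell and 15.6% rose in PT against MT.

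Ptpn2 encodes TC-PTP, which acts on JAK kinases and STATs. A region 1.4 kb from the gene (chr18:67726060-67726561) was at 3.53 and 3.41 log2 CPM in CL, 2.17 and 2.39 in PL, 2.51 and 2.99 in CT, 0.69 and 1.73 in PT, 2.24 and 1.69 in MC, 0.96 and 0.59 in ML, 0.77 and -0.26 in MP, 0.36 and 0.90 in MT and -0.05 and 0.31 in MM. CL held 43 and 50 reads, and MM held 2 in each library. The region was higher in CL than in ML by 2.69 log2 units (SE 0.39, adjusted p = 6.3e-06), with all CL values above all ML values. It was also higher in CT than in MT, by 2.11, and in MC than in MM, by 1.83 (0.83 and adjusted p of 0.126 after quantile normalization).

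Ptpn6 encodes SHP-1, the SH2 phosphatase of blood cells. A region 8.7 kb inside the gene (chr6:124729749-124730250) was at 5.06 and 5.27 log2 CPM in CT, against 4.10 and 4.00 in PT, a log2 difference of 1.12 (SE 0.14, adjusted p = 2.2e-07). PT was also below MT, at 4.80 and 4.58, by 0.64 log2 units (log2 difference -0.64, adjusted p = 0.000746). In these comparisons with PT, regions of macrophage markers moved too. Of all regions, 15.6% rose and 13.4% fell in PT against MT, and 18% were higher and 15.4% lower in CT than in PT. Of the 53 marker regions 2 rose and 15 fell in PT against MT, and 23 were higher and 1 lower in CT than in PT. Without PT replicate 2 these counts were 6 and 7, and 7 and 2. The part of the marker changes in the phosphatase results was not tested.

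In the PEST family, which binds cytoskeletal and signalling partners through a proline-rich tail, 3 of 18 regions rose and 1 fell with CpG, 2 rose and 1 fell with LPS, and 4 rose and 1 fell with polyI:C. The median log2 differences were -0.01, 0.01 and -0.10. Ptpn22 encodes a partner of the kinase CSK. One of its start regions, chr3:103859457-103859958, which overlaps the Ptpn22 window printed above, was at 4.56 and 4.50 log2 CPM in PL and 4.55 and 4.25 in PT, against 5.08 and 5.19 in ML and 5.12 and 5.02 in MT. Both polyI:C groups lay below the medium groups. The log2 difference was -0.60 in PL against ML and -0.67 in PT against MT, each with an SE of 0.14 and adjusted p of at most 0.00177. A region 47.6 kb into Ptpn22 (chr3:103907627-103908128) moved the other way, with log2 differences of 0.74 in PL against ML and 0.80 in PT against MT (SE 0.17). Single polyI:C raised this region by 0.85 (adjusted p = 0.000137). Ptpn18 had the one region lowered by all 4 single stimuli, at chr1:34472948-34473449 and 13.5 kb from its start. The log2 difference was -0.84 with CpG, -0.73 with LPS, -0.54 with polyI:C and -0.54 with TNF. The polyI:C call was lost without MM replicate 1 (-0.49) or MP replicate 2 (-0.51), and the TNF call without any 1 of the 4 MT and MM libraries (-0.40 to -0.68). The TNF call was also lost with the replicate block (adjusted p = 0.0505), libraries shifted to one median (0.0532), quantile normalization (0.101), no variance trend (0.0824) and MP as 1 sample (0.0571). Near one end of Ptpn12, which encodes PTP-PEST, a region at chr5:21054618-21055119 was at 2.33 and 2.59 in PT, against 3.58 and 3.82 in MT, a log2 difference of -1.24 (SE 0.22).

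Phosphatases with a FERM domain sit at the cell cortex beneath the membrane. Of their 19 regions, 3 rose and 1 fell with CpG, 1 rose and 3 fell with LPS, 4 rose and 1 fell with polyI:C, and 0 were called with TNF. In PT against MT 7 rose and 0 fell, against 15.6% and 13.4% of all regions. In CT against PT 0 were higher and 9 lower, against 18% and 15.4%, with a median of -0.52 against 0.02 in all regions. Without PT replicate 2, 6 rose and 0 fell in PT against MT, and 0 were higher and 4 lower in CT than in PT (median -0.39). Ptpn13 encodes a large scaffold phosphatase. Its region 167.8 kb into the gene (chr5:103592718-103593219) was at 1.88 and 1.85 log2 CPM in CL, 3.03 and 2.94 in PL, 1.51 and 1.81 in CT, 2.77 and 3.36 in PT, 3.47 and 3.62 in MP, 2.31 and 2.39 in MC, 1.79 and 1.94 in ML, 1.30 and 1.52 in MT, against 1.24 and 1.49 in MM. All groups that had seen polyI:C lay above all groups that had not. Single polyI:C raised it by 2.18 log2 units (SE 0.28, adjusted p = 6.13e-08), polyI:C before LPS by 1.12 and polyI:C before TNF by 1.65. It was lower in ML than in MP by 1.68 (log2 difference -1.68). A region 48.3 kb from Ptpn13 (chr5:103376364-103376865) also rose most with polyI:C, by 1.89 (SE 0.20), and with CpG by 0.91.

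In Ptpn21, 1 region rose with CpG, LPS and polyI:C alone and again when a first stimulus preceded LPS or TNF. This region, chr12:98697288-98697789 at 37.1 kb into the gene, was at 4.10 and 4.47 log2 CPM in CL, 3.94 and 4.24 in PL, 3.53 and 3.54 in CT, 3.54 and 3.73 in PT, 3.36 and 3.51 in MC, 2.74 and 3.31 in ML, 2.41 and 2.64 in MP, 2.10 and 1.95 in MT and 1.24 and 1.49 in MM. CL and PL lay above ML and above MC, without overlap. Log2 differences were 1.26 in CL against ML, 1.07 in PL against ML, 1.51 in CT against MT and 1.61 in PT against MT (SE 0.23). Without ML replicate 1 the PL difference was 0.78 with adjusted p of 0.0556. In MP against MM the difference was 1.16, and after quantile normalization it was 0.55 with adjusted p of 0.0647. Near Ptpn3, a region at chr4:57352223-57352724 was higher where polyI:C came first, by 1.20 under LPS and 1.36 under TNF (SE 0.25). In Ptpn14, a region 70.9 kb from the start (chr1:189798898-189799399) fell with CpG by 0.70 and with LPS by 1.09 log2 units (log2 differences -0.70 and -1.09).

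The phosphatases that bind MAP kinases through a kinase interaction motif are Ptpn5, Ptpn7 and Ptprr. Of their 15 regions, 2 rose and 2 fell with CpG, 1 rose and 2 fell with LPS, 2 rose and 2 fell with polyI:C and 0 were called with TNF. A region 14.4 kb from Ptpn5 (chr7:47148395-47148896) was at 3.40 and 3.30 log2 CPM in PL, 2.85 and 3.36 in PT, 2.76 and 2.17 in MP, 1.33 and 1.15 in ML, 1.48 and 1.24 in MT and 0.19 and 0.90 in MM. All 3 polyI:C groups lay above ML, MT and MM. Differences on the log2 scale were 2.11 in PL against ML, 1.74 in PT against MT and 1.92 in MP against MM (SE 0.35). CL, at 2.06 and 1.15, lay below PL, by 1.75 (log2 difference -1.75), and this call was lost without CL replicate 2 (-1.29, adjusted p = 0.0682). Ptpn7, which encodes the MAP kinase phosphatase of blood cells, had a region 1.2 kb away (chr1:135130137-135130638) that fell with polyI:C first. It was at 2.37 and 2.76 in PL and 2.21 and 1.45 in PT, against 3.80 and 3.84 in ML and 3.39 and 3.57 in MT. The log2 differences were -1.25 and -1.65 (SE 0.25). Ptprr had regions of either direction. The one at chr10:116175470-116175971 fell with LPS (log2 difference -1.16, SE 0.25), and the one at chr10:116131217-116131718 rose in PL against ML by 1.18 and in PT against MT by 0.81 (SE 0.15).

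CD45, the product of Ptprc, opens the inhibited form of SRC family kinases. CpG and LPS each raised 5 of its 13 regions and lowered 0, and polyI:C raised 3 and lowered 3. In MC against MP, 8 of the 13 were higher and 1 lower, and in ML against MP 8 were higher and 0 lower. In all regions, 12.1% were higher and 9.99% lower in MC than in MP, and 10.3% higher and 11% lower in ML than in MP. These comparisons between single stimuli were added after the data were seen. The largest log2 difference from MM of any phosphatase region was in a region 25.0 kb from Ptprc (chr1:138037349-138037850). It was at 4.04 and 3.63 log2 CPM in CL, 3.65 and 3.59 in PL, 3.25 and 3.13 in CT, 1.85 and 2.86 in PT, 3.77 and 3.82 in MC, 2.47 and 2.95 in ML, 1.38 and 1.09 in MP, 1.48 and 0.45 in MT and 0.40 and -0.10 in MM. MC held 63 and 73 reads, and MM held 4 and 1. The log2 difference from MM was 3.65 in MC and 2.57 in ML (SE 0.32, adjusted p = 7.56e-12 and 4.85e-08). In MP it was 1.09, and it lost its call after quantile normalization (0.32, adjusted p = 0.48), without MM replicate 2 (0.84) and without MP replicate 1 (0.94). CT was above MT by 2.23. A region 37.1 kb from the gene, at chr1:138025226-138025727, had log2 differences of 2.53 in MC and 1.50 in ML (SE 0.31), and 0.69 with adjusted p of 0.108 in ML after quantile normalization. Within Ptprc, at 16.6 kb, a region at chr1:138158259-138158760 rose with all 4 stimuli, by 1.15, 1.17, 0.52 and 0.72 with CpG, LPS, polyI:C and TNF. The polyI:C call was lost without MP replicate 2 (0.44, adjusted p = 0.0717). On the other side, 16.1 kb from the gene, a region at chr1:138191891-138192392 fell. It was at 4.26 and 4.14 in CL and 4.33 and 4.37 in CT, against 4.93 and 4.98 in ML and 5.19 and 4.98 in MT, log2 differences of -0.75 and -0.74 (SE 0.15). The start region of Ptprc did not differ between groups by the F test (adjusted p = 0.373).

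**Figure D2:**
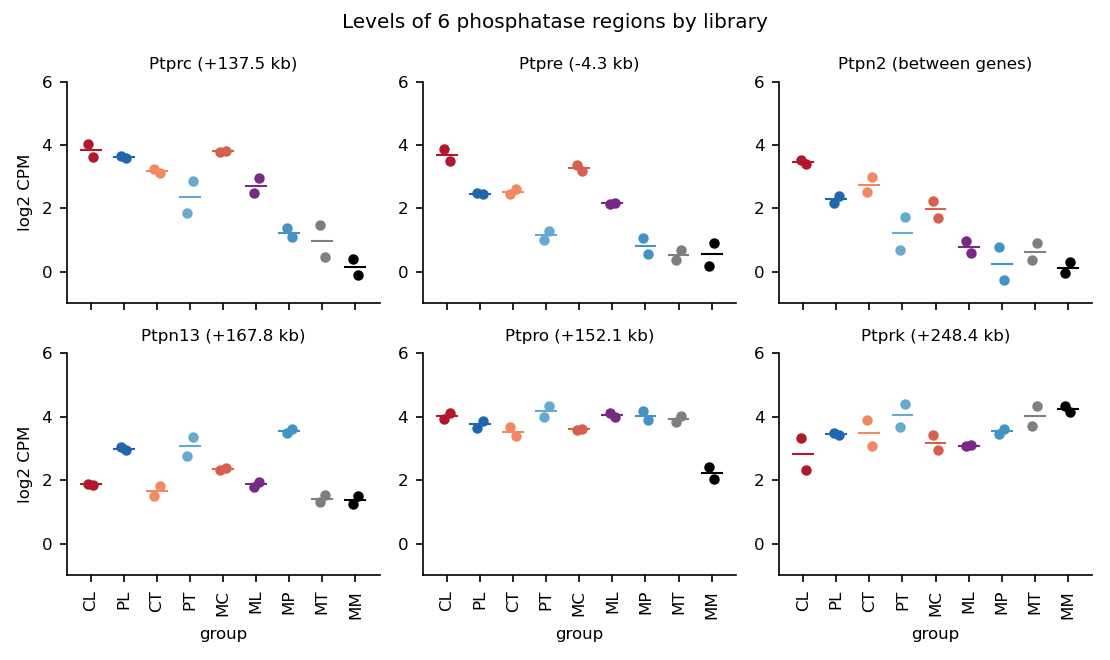
Levels (log2 CPM, vertical axis) of 6 phosphatase regions in the 9 groups (horizontal axis), with a point for each library and a line at the group mean. The Ptprc region is lowest in MM (0.40 and -0.10) and highest in MC and CL, the Ptpn13 region is high in PL, PT and MP, and the Ptpro region is low only in MM.

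Receptors of the R3 group carry fibronectin repeats outside the cell. Of their 35 regions, 14 rose and 0 fell with CpG, 11 rose and 3 fell with LPS, 9 rose and 2 fell with polyI:C and 3 rose with TNF, with medians of 0.30, 0.30, 0.15 and -0.00. Most of this was Ptprj, which encodes CD148. Of its 21 regions, 11 rose and 0 fell with CpG, and 10 rose and 0 fell with LPS. In CT against MT 12 rose and 0 fell. Of all regions, 17.7%, 15.5%, 19% and 6.15% rose with CpG, LPS, polyI:C and TNF, and 9.23%, 10.3%, 14.2% and 0.686% fell. In CT against MT 11.2% of all regions rose and 6.18% fell. A region at 35.1 kb in Ptprj, chr2:90545228-90545729, was at 5.45 and 5.45 log2 CPM in MC, 5.23 and 5.50 in ML, 5.24 and 5.10 in MP, 4.97 and 4.42 in MT, against 3.47 and 3.23 in MM. All 8 stimulated libraries lay above both MM libraries. The log2 differences were 2.10, 2.01, 1.81 and 1.34 with CpG, LPS, polyI:C and TNF (SE 0.15), and these calls held in every alternative that was run. At 33.1 kb, a region at chr2:90547293-90547794 had another pattern. It was at 4.06 and 3.93 in MC, 3.22 and 3.14 in ML, 1.57 and 1.95 in MP, 1.48 and 1.52 in MT, against 1.44 and 2.13 in MM. CpG and LPS raised it by 2.21 and 1.40 (SE 0.25), and MC was above MP by 2.24. The MP and MT values lay within the range of MM.

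Ptpro encodes a receptor known from podocytes, with a shorter form in blood cells. Its region at 152.1 kb, chr6:137404150-137404651, was at 3.92 and 4.10 log2 CPM in CL, 3.65 and 3.86 in PL, 3.67 and 3.39 in CT, 4.00 and 4.34 in PT, 3.58 and 3.62 in MC, 4.11 and 4.00 in ML, 4.17 and 3.89 in MP, 3.82 and 4.01 in MT, against 2.42 and 2.02 in MM. Both MM libraries lay below all 16 others. The log2 differences from MM were 1.38, 1.84, 1.81 and 1.70 with CpG, LPS, polyI:C and TNF (SE 0.20), stable in every alternative that was run. A region at 155.8 kb, chr6:137407799-137408300, rose with CpG only among the single stimuli (1.35, SE 0.26). It was higher in CT than MT by 1.09 (0.68 and adjusted p of 0.0785 after quantile normalization) and in PT than MT by 1.21.

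The R4 group holds Ptpra and Ptpre. Of its 39 regions 9 rose and 2 fell with CpG, 8 rose with LPS, 7 rose and 5 fell with polyI:C and 6 rose with TNF. Ptpra contributed 1 fall with CpG and no other call with a single stimulus. In mice, Ptpre is known to give a receptor form and a cytosolic form from separate promoters; which start serves which form was not tested here. The region of the first start, chr7:135537500-135538001, was at 5.29 and 5.39 log2 CPM in MC, 5.22 and 5.21 in ML, 5.03 and 5.05 in MP, 5.33 and 5.34 in MT, against 5.33 and 5.39 in MM. No single stimulus passed the test there. The region did pass limma's F test over the 9 groups (adjusted p = 0.0138), and PL was the lowest group, at 4.88 and 4.82. The region of the internal start, chr7:135605273-135605774, was at 4.52 and 4.36 in MC, 4.85 and 4.82 in ML, 5.11 and 4.95 in MP, 5.02 and 4.94 in MT, against 4.05 and 4.00 in MM. LPS, polyI:C and TNF raised the internal region by 0.81, 1.01 and 0.96 log2 units (SE 0.16), in both libraries. The region was lower in PL (4.16 and 4.19) than in ML by 0.66, and in CT (4.14 and 4.15) than in MT by 0.84 log2 units (log2 differences -0.66 and -0.84). PT, at 4.10 and 4.66, was lower than MT by 0.60 (log2 difference -0.60), a call lost without PT replicate 1 (-0.32, adjusted p = 0.151) or MT replicate 1 (-0.55, adjusted p = 0.0552). These 2 regions were picked because they carry a start, after their values were seen.

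Of the 30 Ptpre regions, 22 passed the F test, and 4 further regions had the following values. The region at chr7:135601280-135601781, 4.3 kb before the internal start, was at 3.87 and 3.49 log2 CPM in CL, 2.48 and 2.45 in PL, 2.45 and 2.60 in CT, 1.01 and 1.28 in PT, 3.36 and 3.17 in MC, 2.14 and 2.18 in ML, 1.05 and 0.57 in MP, 0.36 and 0.69 in MT and 0.19 and 0.90 in MM. MC and CL were the highest groups, and MP, MT and MM lay together at the bottom. CpG raised it by 2.72 (SE 0.32, adjusted p = 8.9e-09) and LPS by 1.61, and it was higher in CL than ML by 1.52 and in CT than MT by 2.00. The region at chr7:135567557-135568058 was highest in the polyI:C groups. It was at 3.28 and 3.43 in PL, 3.17 and 3.40 in PT, 3.38 and 3.48 in MP, 2.68 and 2.23 in MC, 2.08 and 2.06 in ML, 2.10 and 2.13 in MT, against 1.77 and 1.32 in MM. PolyI:C raised it by 1.88 alone, by 1.28 before LPS and by 1.17 before TNF (SE 0.26), and CL and CT were below PL and PT by 1.22 each. CpG raised it by 0.91, a call lost after quantile normalization (0.26, adjusted p = 0.539), without MC replicate 1 (0.69) and without MM replicate 2 (0.68). The region at chr7:135644499-135645000, at 38.9 kb, was at 6.24 and 6.32 in MC, 6.29 and 6.29 in ML, 6.07 and 5.90 in MP, 6.05 and 6.11 in MT, against 5.20 and 4.95 in MM. It rose with all 4 stimuli, by 1.21, 1.22, 0.91 and 1.00 (SE 0.12). At chr7:135580976-135581477 polyI:C lowered accessibility by 1.08 log2 units (log2 difference -1.08, SE 0.21), and CT was above PT by 1.35.

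**Figure D3:**
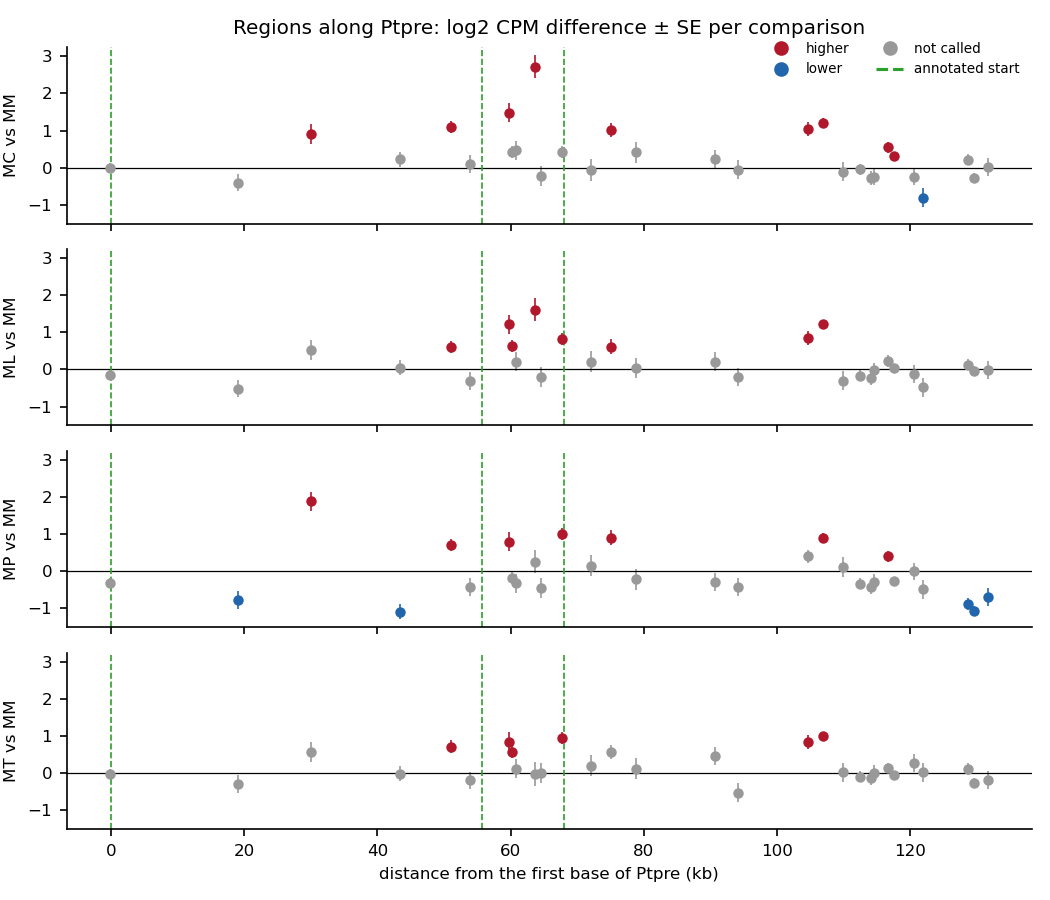
Log2 difference from MM (vertical axis, ± SE) of the 30 Ptpre regions by distance from the first base of the gene (kb, horizontal axis), for CpG, LPS, polyI:C and TNF. Red points were called higher, blue lower, grey not called, and dashed lines mark annotated starts. A region 4.3 kb before the internal start rises by 2.72 with CpG and 1.61 with LPS, and polyI:C lowers 5 regions.

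The MAM-domain receptors Ptprk, Ptprm and Ptpru bind like molecules on neighbouring cells. Among their 22 regions, falls outnumbered rises with CpG (2 higher, 4 lower), with LPS (2 and 4) and with polyI:C (1 and 8). Of all regions, 9.23%, 10.3% and 14.2% fell with these stimuli, and 17.7%, 15.5% and 19% rose. The polyI:C count takes the 2 MP libraries as separate samples, which was not established. TNF raised 3 and lowered 0. Of 9 Ptprk regions, 3, 4 and 5 fell with CpG, LPS and polyI:C and 0 rose. One of these (chr10:28322961-28323462) was at 3.42 and 2.94 log2 CPM in MC, 3.07 and 3.11 in ML, 3.45 and 3.62 in MP, against 4.35 and 4.16 in MM. The log2 difference was -1.07 in MC, -1.16 in ML and -0.72 in MP (SE 0.27), with no overlap of groups with MM. The CpG call was lost without MC replicate 2 (-0.83, adjusted p = 0.0731), and the polyI:C call was lost without any 1 of the 4 MP and MM libraries (-0.62 to -0.82). Ptprm regions differed among themselves. PolyI:C lowered that at chr17:66711126-66711627 by 1.20 log2 units (3.25 and 3.10 in MP, against 4.65 and 4.10 in MM; log2 difference -1.20, SE 0.18). The neighbour at chr17:66713179-66713680 rose with first stimuli instead, to 4.75 and 4.72 in CL, against 3.54 and 3.02 in ML, by 1.46 (SE 0.22). In the LAR family, 4 of 10 regions fell in CL against ML and 0 rose, against 6.42% and 10.5% of all regions. All 4 lay at Ptprs, which encodes a receptor for proteoglycans of the matrix. The region at chr17:56443178-56443679 was at 3.36 and 3.14 in CL, against 4.43 and 4.19 in ML (log2 difference -1.06, SE 0.20). In the R8 group, which sits on secretory granules, 3 of 11 regions fell with each of CpG, LPS and polyI:C and 0 rose. All were at Ptprn2, for example chr12:116595694-116596195, where the log2 difference was -1.37, -1.10 and -1.12 (SE 0.35). Without MM replicate 2 the 3 values were -1.13, -0.85 and -0.87 with adjusted p of 0.0629, 0.187 and 0.144. The LPS call was also lost without ML replicate 1 (-0.84) and the polyI:C call without MP replicate 1 (-1.05).

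Counted over single stimuli, 10 regions were higher with all 4 stimuli (4.63% of the family, against 4.47% of all regions) and 1 was lower with all 4 (0.463%, against 0.335%). CpG, LPS and polyI:C together raised 23 regions (10.6%, against 8.2%) and lowered 9 (4.17%, against 3.28%). CpG and LPS but not polyI:C raised 12 (5.56%, against 3.25%), with 5 at Ptprj and 3 at Ptprc. PolyI:C alone, here meaning that no other single stimulus moved the region the same way, raised 9 (4.17%, against 6.2%) and lowered 18 (8.33%, against 7.26%). With MP counted as 1 sample, polyI:C alone raised 6 and lowered 10, CpG, LPS and polyI:C together lowered 3, and 0 were lower with all 4. The counts of all regions with these patterns became smaller as well. No region was higher with 1 stimulus and lower with another, against 0.846% of all regions. These 4 comparisons share the MM libraries. No single stimulus was called in 110 regions (50.9%, against 50.3%), and 39 of these were called in a comparison of a first stimulus with medium (18.1%, against 17.8%). In all, 59 regions were called in none of the 10 comparisons of 2 groups (27.3%, against 27.2%). These shares lay within a few percentage points of those of all regions.

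**Figure D4:**
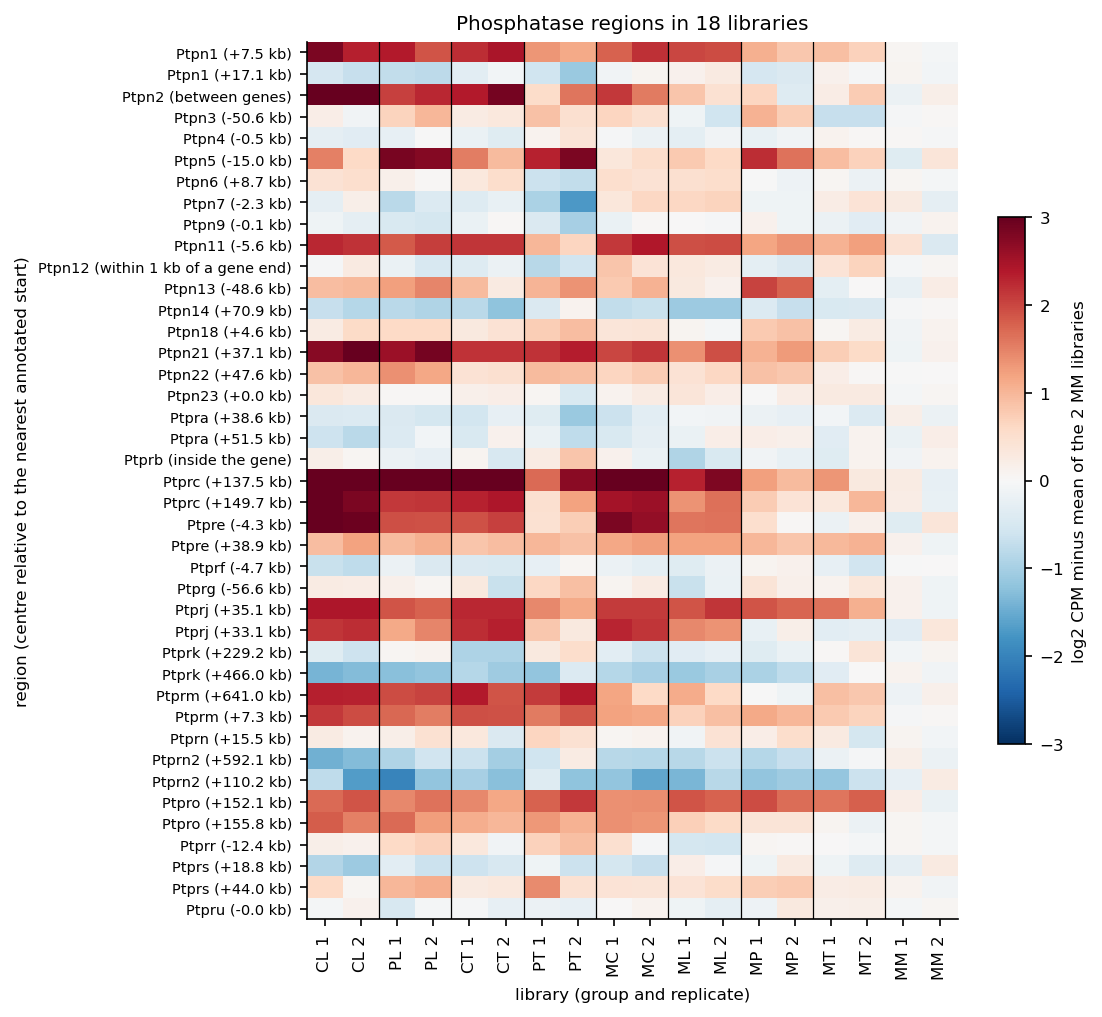
Log2 CPM minus the mean of the 2 MM libraries (colour, red above and blue below MM) in 18 libraries (columns) for the phosphatase regions (rows) with the smallest F-test p of each gene, 1 region a gene or 2 where a gene held over 8 regions. Rows are named by gene and by the distance of the region's centre from the nearest annotated start. The Ptprc rows are dark red in CL and MC, and the Ptpn5 row is dark red in PL and PT.

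The next question was what a first stimulus changed when a second stimulus followed. In CL against ML, 22 regions were higher and 18 lower (18.5% of the family, against 17% of all regions, or 10.5% higher and 6.42% lower). In CT against MT 31 were higher and 19 lower (23.1%, against 17.4%, or 11.2% higher and 6.18% lower). In PL against ML 27 and 22 were called (22.7%, against 24.2%, or 14.3% higher and 9.98% lower), and in PT against MT 30 and 28 (26.9%, against 29%, or 15.6% higher and 13.4% lower). With libraries shifted to one median, the counts higher and lower were 16 and 27 in CL against ML, 26 and 32 in PL against ML and 26 and 34 in PT against MT, so which direction held more calls depended on the scaling. The family's share was above that of all regions for CpG before TNF and near it in the other 3 comparisons. With regions assigned to the nearest gene end, 26 of 147 members were called for CpG before TNF, a share near that of all regions. The difference in share was not tested. In each run below that left out 1 library, the count of all regions called fell as well. Leaving out 1 library reduced the CL calls of 40 to 14, 21, 19 and 21 (without CL replicate 1, CL replicate 2, ML replicate 1 and ML replicate 2) and the PL calls of 49 to 31 or 32 for each of the 4 libraries. The 50 CT calls became 28 when CT replicate 2 was left out, 33 for MT replicate 1 and 26 for MT replicate 2, and the 58 PT calls became 35 without MT replicate 1.

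The first-stimulus effect was in the same direction under both second stimuli in 14 regions that rose and 3 that fell with CpG first, and in 20 that rose and 14 that fell with polyI:C first. These were 6.48%, 1.39%, 9.26% and 6.48% of the family, against 5.83%, 2.09%, 9.89% and 6.65% of all regions. The comparisons under LPS and TNF share no library. Rises in all 4 comparisons of a first stimulus with medium occurred in 7 regions (3.24%, against 2.65%), at Ptpn13, Ptpn21, Ptprc, Ptprj, Ptprm and Ptpro. The Ptprm region at chr17:67346890-67347391 was at 3.99 and 3.83 log2 CPM in CL, 3.60 and 3.40 in PL, 3.80 and 3.79 in CT, 3.43 and 3.73 in PT, 2.57 and 2.78 in ML and 2.66 and 2.55 in MT, without overlap. The log2 difference was 1.24, 0.82, 1.19 and 0.98 (SE 0.22), and the PL call was lost without PL replicate 1 (0.72, adjusted p = 0.0601) or ML replicate 1 (0.72, adjusted p = 0.0702). At the start regions, 4 of 24 fell and 0 rose in CL, 3 and 0 in PL, 4 and 0 in CT and 5 and 0 in PT. In all 8044 promoter regions of the table falls also outnumbered rises, with 208 higher and 493 lower in CL against ML and 594 higher and 1280 lower in PT against MT. Whether the family's start regions differed from all promoter regions was not tested.

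**Figure D5:**
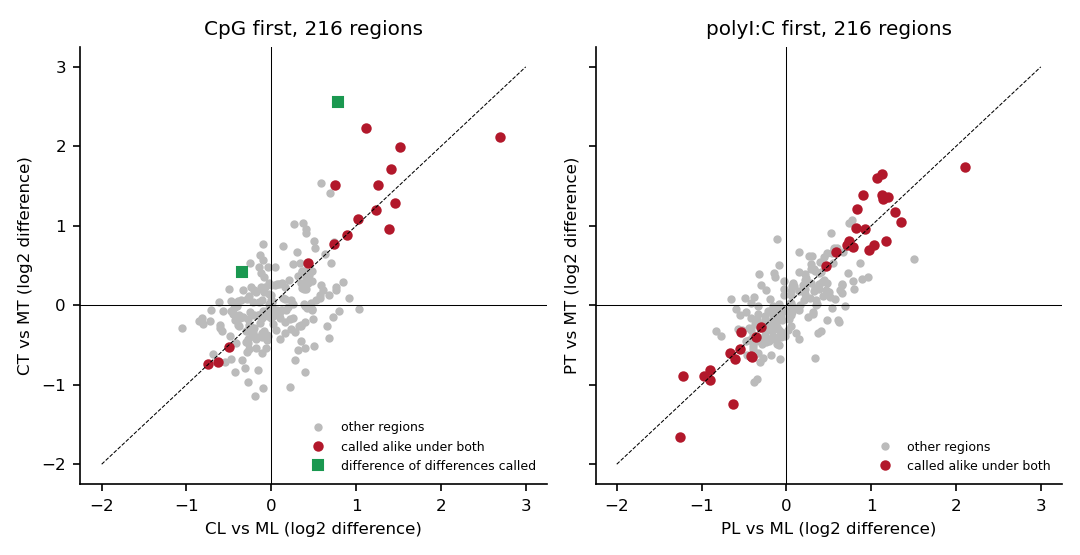
Log2 difference for a first stimulus against medium first, under LPS (horizontal axis) and under TNF (vertical axis), for 216 regions, with CpG first on the left and polyI:C first on the right. Red points were called in the same direction under both, green squares have a called difference of the differences, and the dashed line marks equal values. Both green squares are Ptprj regions.

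Whether the effect of CpG differed between second stimuli was tested as a difference of differences. It was called in 2 of 216 regions, both lower and both at Ptprj, against 0.318% of all regions (0.0204% higher and 0.297% lower). At chr2:90547293-90547794 the log2 difference was 0.79 in CL against ML and 2.55 in CT against MT, so the difference of differences was -1.77 (SE 0.36, adjusted p = 0.0101). CL (3.94 and 4.00) and CT (4.00 and 4.11) lay at about one level, against 3.22 and 3.14 in ML and 1.48 and 1.52 in MT. At chr2:90574034-90574535 the effect of CpG was -0.35 in CL against ML and 0.42 in CT against MT, a difference of -0.77 (SE 0.18, adjusted p = 0.0388). The CL against ML differences behind both lost their calls without any 1 of the 4 libraries (0.75 to 0.83 and -0.31 to -0.40). The CT against MT difference of 0.42 did so without CT replicate 1 (0.40), CT replicate 2 (0.44) or MT replicate 2 (0.30). The count was 0 without CL replicate 1, CL replicate 2, CT replicate 2, ML replicate 1 or ML replicate 2, and 1 without MT replicate 2. For polyI:C first, the difference of differences was called in 0 of 216 regions and 0% of all regions by limma. Voom on recovered reads also called 0 family regions.

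CpG and polyI:C as first stimulus were compared directly. Under LPS, CL was higher than PL in 13 regions and lower in 10 (10.6%, against 9.43% of all regions, or 4.63% higher and 4.81% lower), and with libraries shifted to one median 10 were higher and 12 lower. Under TNF, CT was higher than PT in 38 and lower in 38 (35.2%, against 33.4%, or 18% higher and 15.4% lower). Regions lower in CL than PL and in CT than PT were 6 (2.78%, against 3.37%), at Ptpn5, Ptpn13, Ptpre, Ptprr and Ptprs. Regions higher in both were 8 (3.7%, against 3.17%), at Ptpn2, Ptpn5, Ptpre and Ptprj. In the runs that follow, the count of all regions called fell along with that of the family. Without 1 library the CL against PL count of 23 was 10, 5, 10 and 8 (CL replicates 1 and 2, PL replicates 1 and 2), and the CT against PT count of 76 was 33 without CT replicate 2 and 40 without PT replicate 2.

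Partners and substrates of the phosphatases, such as the inhibitory receptor Sirpa and the kinases Syk, Lyn and Jak2, held 234 regions at 29 genes. CpG raised 78 and lowered 15 of these, LPS raised 65 and lowered 12, polyI:C raised 57 and lowered 36 and TNF raised 29 and lowered 0. The median log2 differences were 0.01, 0.01, -0.00 and 0.02 in the phosphatase regions, against 0.17, 0.26, 0.00 and 0.05 in the partner regions. In CT against PT, 38 phosphatase regions were higher and 38 lower, and of all regions 18% were higher and 15.4% lower. Of the partner regions, 83 were higher and 12 lower. The partner median was 0.42 without PT replicate 1 and 0.16 without PT replicate 2, so its size depended on the PT library kept. Without PT replicate 2 the phosphatase balance also tilted toward higher regions. The difference between the lists was not tested.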

How the data were processed

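ATAC-seq was measured in 18 libraries of 9 groups. Per the submitters' processing notes, the build was mm10 (GRCm38) and the tools included MACS3 3.0.0b1, Bowtie2 2.2.5, featureCounts, SAMtools 1.9 and Picard. The authors deposited a log2 CPM value for each region and library. These log2 values returned whole reads in all libraries (100% of values within 0.01 of a whole read), with 0 reads at -0.70, so differences at sparse regions come out too small. Libraries held 3141641 to 5986835 reads in the regions. Coordinates are as deposited.

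Each region was assigned to the nearest protein-coding gene body of RefSeq GRCm38.p6 within 50 kb (48850 regions at 13802 genes). Group means were fitted with limma 3.58.1 (R 4.3.3) and a variance trend (9 residual and 29.09 prior degrees of freedom). The Benjamini-Hochberg adjustment ran over the whole table of 53796 regions, and an adjusted p under 0.05 was called. The median SE of a difference was 0.205. Tested on simulated data for MC against MM over 53796 regions, the fit recovered 4%, 72%, 100% and 100% of log2 changes of 0.5, 1, 2 and 3. Alternatives changed 1 choice at a time. The members and gene lists were chosen with earlier results of these data known. Named regions are 86 taken by a rule (largest called changes, the highest level within 1 kb of a gene end and smallest F-test p) and 14 added after their values were seen. Replicate numbers were not taken to pair samples, since the labels do not say that a number marks a shared animal, litter or day. Deviations of same-numbered libraries correlated at -0.358 to 0.242 over 36 pairs of groups.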

Additional observations from a re-analysis of the deposited data

Results flagged for a closer look

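The effect of CpG as first stimulus differed between LPS and TNF as second stimulus in 2 Ptprj regions, by limma's test of the difference of differences. At chr2:90547293-90547794 the value was -1.77 (SE 0.36, adjusted p = 0.0101), from 0.79 in CL against ML and 2.55 in CT against MT. At chr2:90574034-90574535 it was -0.77 (SE 0.18, adjusted p = 0.0388), from -0.35 and 0.42. Both lost their call when any of several single libraries was left out, as given with the results, and the part of single libraries in them was not tested further.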

How the results depend on the processing

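No called difference of a named region changed sign. Where 1 library was left out, the count of all regions called changed as well. The balance of higher and lower calls did turn in some comparisons. With libraries shifted to one median it was 16 higher and 27 lower in CL against ML (22 and 18 as reported), 26 and 32 in PL against ML, 26 and 34 in PT against MT and 10 and 12 in CL against PL. After quantile normalization it was 18 and 21 in CL against ML and 24 and 29 in PT against MT. Without sparse regions it was 10 and 12 in CL against ML, 15 and 19 in PL against ML and 17 and 25 in PT against MT. By gene end it was 11 and 12 in CL against ML and 22 and 24 in PT against MT, and within 10 kb of a gene body 20 and 22 in PL against ML and 25 and 26 in PT against MT. It was 32 and 36 in PT against MT without PT replicate 1 and 4 and 6 in CL against PL without CL replicate 1. In CT against PT, 38 and 38 as reported, it was 24 and 9 without CT replicate 2 and 28 and 37 without CT replicate 1. The CpG difference of differences, 0 and 2 as reported, was 2 and 1 without CT replicate 1 and 3 and 2 with only the compared groups in the fit. When sparse regions (mean level under the 25th percentile) were left out, the counts called were 41 for MC, 46 for MP, 22 for CL against ML, 33 for CT against MT, 11 for CL against PL, 1 for the CpG difference of differences and 107 by the F test. By the nearest gene end, which leaves 147 members, the counts were 40 for MC, 29 for ML, 43 for MP and 9 for MT. They were 23 for CL against ML, 26 for CT against MT, 15 for CL against PL and 48 for CT against PT. They were also 0 for the CpG difference of differences and 106 by the F test. With only the compared groups in the fit they were 64 for CL against ML, 79 for PL against ML, 31 for PT against MT, 35 for CL against PL, 36 for CT against PT and 5 for the CpG difference of differences; the cause was not tested. Quantile normalization gave 10 for MT and 1 for the CpG difference of differences, no variance trend gave 1 and MP as 1 sample gave 1 for that difference. Leaving out 1 library at a time gave 43 to 52 for MC, 11 to 13 for MT, 14 to 21 for CL against ML, 31 to 32 for PL against ML, 26 to 43 for CT against MT, 35 to 68 for PT against MT, 5 to 10 for CL against PL, 33 to 91 for CT against PT and 0 to 3 for the CpG difference of differences.

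With the replicate block, 65 regions were called for MC, 55 for ML, 69 for MP, 16 for MT, 34 for CL against ML, 48 for PL against ML, 50 for CT against MT, 58 for PT against MT, 21 for CL against PL, 74 for CT against PT, 2 and 0 for the differences of differences and 160 by the F test. Pairing by replicate number was not established, with 5 of 36 pairs of groups correlating over 0.1.

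Depth limits the regions with few reads. Of the 216 regions, 68 were under the 25th percentile of mean level, and at a log2 change of 0.5 the simulation recovered 4% in MC against MM and 6% in CL against ML.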
